A study of Homo sapiens with 8 samples.

Results

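The genes described here are 10 members of the Notch pathway in MP38, a BAP1-mutant uveal melanoma (UM) cell line. They comprise the receptors NOTCH1, NOTCH2 and NOTCH3, the ligands DLL1, DLL3, JAG1 and JAG2, and the targets HES1, HEY1 and HEY2. They were chosen by name from the 35238 gene symbols counted by bulk RNA sequencing, and all 10 were among the 15085 genes tested. MP38 cells were exposed for 24 h to 40 nM romidepsin, 40 nM quisinostat or 1200 nM mivebresib, or to the vehicle alone as the control, and all 4 groups contained 0.1% DMSO. Romidepsin and quisinostat are inhibitors of histone deacetylases (HDAC), and mivebresib inhibits the BET bromodomain proteins. Each group held 2 libraries from separate wells of the same line. All groups share the BAP1 mutation and the single time point.

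In the coordinates of GRCh38 with the GENCODE 29 annotation, all 10 genes are protein-coding. Their loci are NOTCH1 at chr9:136494433-136545786 (minus strand), NOTCH2 at chr1:119911553-120069626 (minus), NOTCH3 at chr19:15159038-15200981 (minus), DLL1 at chr6:170282206-170306565 (minus), DLL3 at chr19:39498895-39508481 (plus), JAG1 at chr20:10637684-10673999 (minus), JAG2 at chr14:105140981-105168824 (minus), HES1 at chr3:194136145-194138732 (plus), HEY1 at chr8:79764010-79767863 (minus) and HEY2 at chr6:125747664-125761269 (plus). Counts are given per gene symbol and do not separate transcripts.

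Notch receptors are cleaved after they bind a Delta-like (DLL) or Jagged (JAG) ligand on a neighbouring cell. The released intracellular domain enters the nucleus, where it joins the DNA-binding protein RBPJ and a Mastermind-like (MAML) coactivator. This complex turns on genes of the HES and HEY families, which encode basic helix-loop-helix repressors and restrain differentiation genes. In the melanocyte lineage the pathway is known for maintaining melanoblasts and melanocyte stem cells. DLL3 is an unusual ligand that acts mainly inside the cell that makes it and does not activate receptors on neighbours.

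RBPJ binds a core of letters TGGGAA, and a longer form of the site reads CGTGGGAA. Both were searched on both strands in RefSeq promoter windows of GRCh38.p14 that run from 250 bases before to 50 bases after the start of transcription, and a match to the longer form is also a match to the core. Windows were held for 7 of the 10 genes. HEY1, DLL1 and DLL3 had no window, so neither form was searched in them. The core occurred in 2 of these, HES1 and HEY2, and in 24.0% of all 35116 promoters. HES1 held it at 84 and at 70 bases before the start, on the strand of the gene. HEY2 held it within the longer form in both places, and 0.826% of all promoters held the longer form. The HEY2 window is set on a RefSeq start of transcription that lies inside the GENCODE locus given above, not at its first base. The HES1 and HEY2 stretches are shown because these are the targets in which the core was found. They span chr3:194135898-194136152 and chr6:125749382-125749636, both on the plus strand, from 250 bases before to 5 bases after the start, with the core or the longer form in capitals (for HEY2 the first match lies on the opposite strand and reads as the reverse complement).
HES1: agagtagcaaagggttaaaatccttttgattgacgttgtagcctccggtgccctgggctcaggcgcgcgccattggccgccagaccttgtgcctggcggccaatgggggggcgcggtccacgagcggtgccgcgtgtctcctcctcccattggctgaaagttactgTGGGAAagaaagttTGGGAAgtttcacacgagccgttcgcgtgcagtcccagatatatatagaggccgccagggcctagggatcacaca
HEY2: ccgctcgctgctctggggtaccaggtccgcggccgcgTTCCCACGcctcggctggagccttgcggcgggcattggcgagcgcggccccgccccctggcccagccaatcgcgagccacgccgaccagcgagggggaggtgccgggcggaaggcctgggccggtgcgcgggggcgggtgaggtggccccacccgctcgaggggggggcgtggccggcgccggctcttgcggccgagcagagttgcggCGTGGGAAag

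Total counts ran from 28483235 to 29359024 per library. The 2 control libraries stood further apart than the pair of any drug. Of the genes tested, 13.8% differed by over 1.5-fold between the controls, against 4.34% to 9.14% within the drug groups. The gap between the controls varied with exon length. Its median (control 2 minus control 1, log2 scale) was -0.21 over 3163 genes under 3 kb. Over 2347 genes of 9 kb or more it was 0.17. Between the same length classes, the drug pairs ran less far (replicate 2 minus 1). Their medians went from -0.0885 to 0.0541 with quisinostat, -0.0906 to 0.084 with mivebresib and 0.0832 to -0.0512 with romidepsin. NOTCH1, NOTCH2, NOTCH3 and JAG1 have over 9 kb of exon, and DLL3 has 2618 bases. Of the 10 genes, 4 differed by over 1.5-fold between the controls. NOTCH1 (1.62-fold), NOTCH2 (1.69-fold) and JAG1 (1.61-fold) were higher in control 2, and DLL3 was 2.75-fold higher in control 1. The part of these gaps in the results was not tested, and values against either control alone are given where they matter.

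The melanocytic markers TYRP1, PMEL, MLANA, MITF and SOX10 were present in every library, whereas DCT had 0 to 5 counts. The summed level of the 7 melanocytic markers was 4193 to 5452 in scaled CPM (defined below) in the controls, 4739 to 5027 with romidepsin, 3563 to 4108 with quisinostat and 3698 to 3776 with mivebresib. TYRP1 held most of this sum, and SOX10, MITF and MLANA differed more between groups by fold. Mean SOX10 was 209 scaled CPM in the controls, 159 with romidepsin, 110.2 with quisinostat, and the mivebresib libraries had 57.2 and 52.8. Mean MITF was 350.1, 301, 133 and 126 in this order of groups, and mean MLANA 206, 187, 99.6 and 81.8. The sum of 7 endothelial markers was 0.709 to 1.06 in the controls, 3.13 to 3.88 with romidepsin, 5.26 to 6.02 with quisinostat and 1.21 to 1.55 with mivebresib. KDR held most of it, while CDH5 had 0 counts in all libraries. The sum of 7 fibroblast markers was 14.5 to 22.8 in the controls, 20.5 to 24.9 with romidepsin, 34.8 to 35.8 with quisinostat and 8.38 to 10.7 with mivebresib, with PDGFRA and COL1A1 as its main parts and LUM at 0 or 1 count throughout. The endothelial sum ran in the same order of groups as the NOTCH3 and DLL1 levels below, and the fibroblast sum was highest with quisinostat and lowest with mivebresib, as was HEY1. The part of any of these markers in those results was not tested. The sum of 5 immune markers was 61.3 to 83.3 in all libraries, nearly all from CD68, with CD3E at 0.

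Levels are given as scaled CPM, the CPM (counts relative to the library total) after TMM scaling for library composition. A gene was called when edgeR's quasi-likelihood test gave a Benjamini-Hochberg adjusted p below 0.05 over all 15085 genes. Fold changes are log2 values of this fit with the standard error (SE) or the 95% interval. In bulk RNA, fewer cells with a transcript and less of it per cell cannot be told apart.

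DLL1 and HES1 rose with all 3 drugs. NOTCH3, JAG1 and HEY1 rose with both HDAC inhibitors, and HEY1 fell with mivebresib. NOTCH2 was called higher with romidepsin, NOTCH1 was called lower with quisinostat, and HEY2 was called higher with mivebresib. JAG2 and DLL3 were called with no drug, as were 26% of all genes tested.

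With romidepsin 6 of the 10 genes were called higher and 0 lower, against 15.2% higher and 15.8% lower among all genes tested. With quisinostat 5 were higher and 1 lower, against 28% and 25.1% of all genes. With mivebresib 3 were higher and 1 lower, against 22.2% and 24.1%. The median log2 fold change of the 10 genes was 0.75, 0.52 and 0.46 for romidepsin, quisinostat and mivebresib, and that of all genes was -0.01, -0.00 and 0.01. Beyond a log2 fold change of 1.5 lay 1 gene with romidepsin (DLL1, against 3.77% of all genes), 2 with quisinostat (DLL1 and NOTCH3, against 11.2%) and 1 with mivebresib (HEY2, against 3.96%). The libraries of drug and control did not overlap for 7, 6 and 7 of the 10 genes, against 63.6%, 74.2% and 69.7% of all genes. Genes higher with all 3 drugs made up 2 of the 10, against 5.4% of all genes. DLL1 and HEY2 exceeded the count filter (0.345 CPM in 2 libraries) only in drug-treated libraries, so their passing was tied to their level there. The other 8 genes exceeded it in every library.

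**Figure D1:**
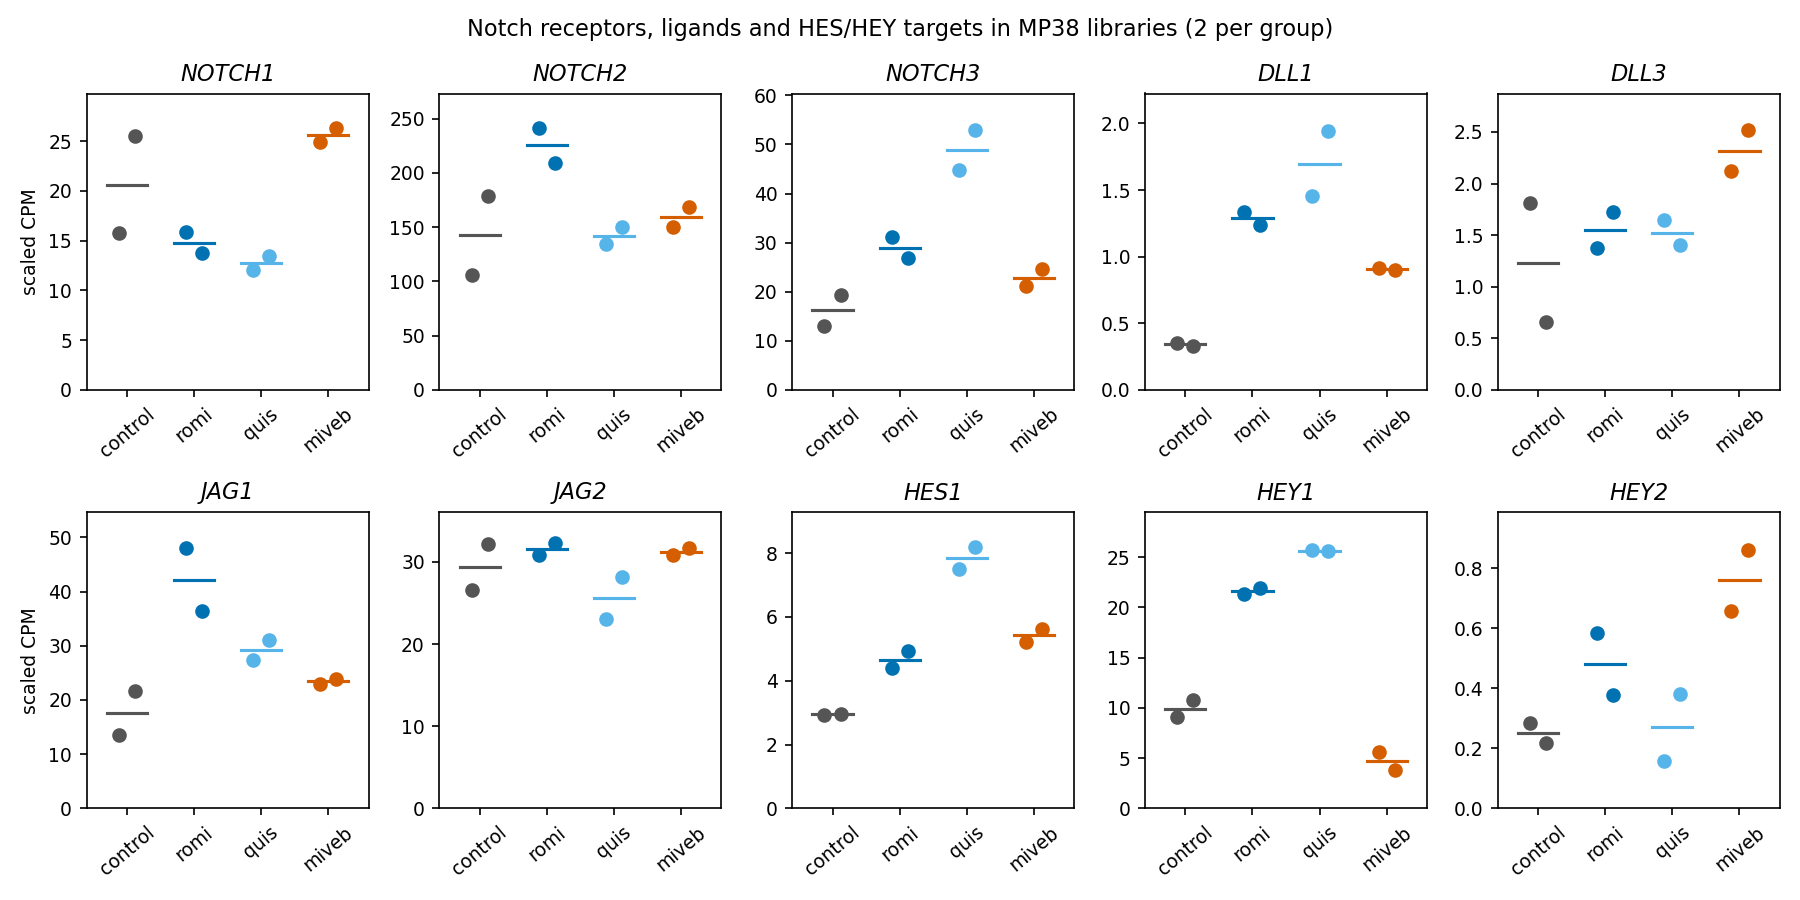
Scaled CPM (vertical axes, each from 0) of the 10 genes in the 8 MP38 libraries: control, romidepsin (romi), quisinostat (quis) and mivebresib (miveb). Points are libraries and lines are means of 2. The HEY1 points lie at 25.6 and 25.7 with quisinostat and at 3.85 and 5.63 with mivebresib, above and below both controls.

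Per kilobase of merged exon, NOTCH2 had the highest control level of the 10 genes, at 8.46 scaled CPM per kb. JAG2 followed at 4.60, HEY1 at 3.07, NOTCH1 at 1.99, JAG1 at 1.90, NOTCH3 at 1.72 and HES1 at 1.43. DLL3 (0.471), DLL1 (0.106) and HEY2 (0.0917) were the lowest. The control ranges of NOTCH1, JAG1 and NOTCH3 overlapped, although these genes kept this order within each control library. Their order was not tested. NOTCH3 lay below HES1 in control 1 and above it in control 2. By the mean level per kb, the receptors and JAG ligands exceeded the DLL ligands in every group.

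**Figure D2:**
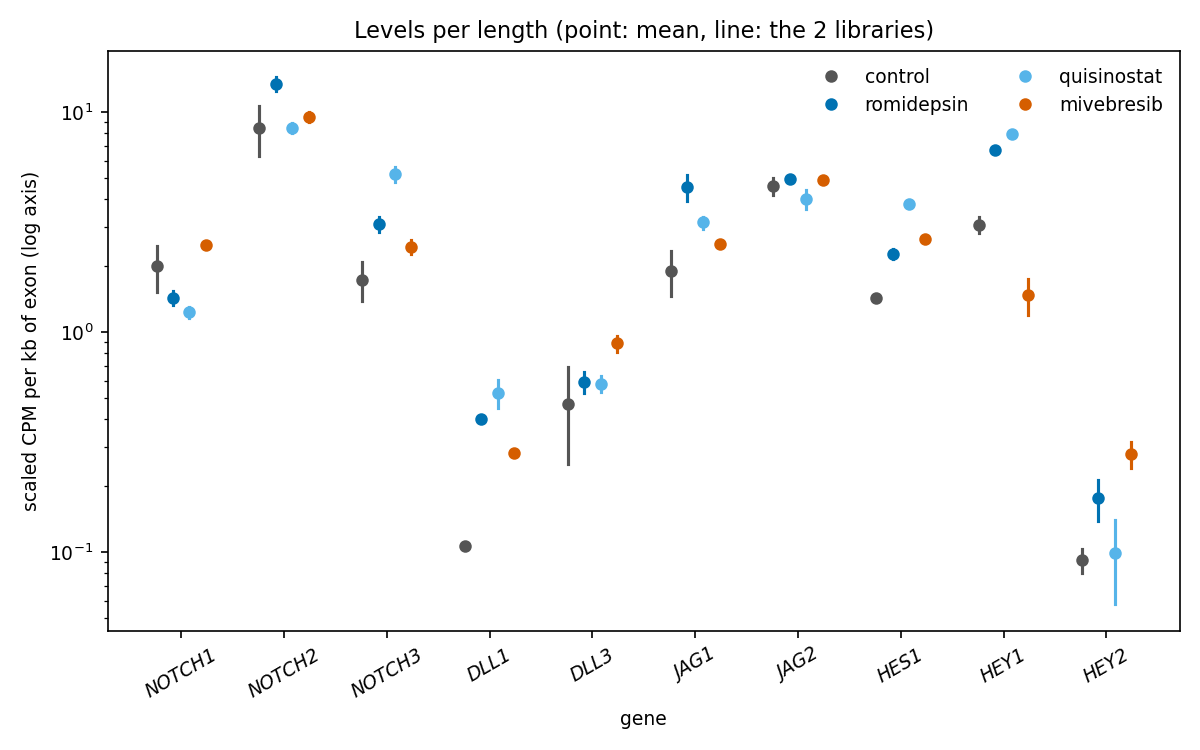
Scaled CPM per kilobase of exon (log axis) of the 10 genes, with the mean of each group as a point and the 2 libraries as the ends of the line. NOTCH2 is the highest in every group, and DLL1, DLL3 and HEY2 lie below 1 in all groups.

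NOTCH3, a receptor known from vascular mural cells and several tumours, had 13.0 and 19.4 scaled CPM in the controls, 31.2 and 26.8 with romidepsin, 44.8 and 52.9 with quisinostat and 21.2 and 24.6 with mivebresib. All 6 drug libraries lay above both controls, and the groups ran in the order quisinostat, romidepsin, mivebresib and control without overlap. The log2 fold change was 1.59 (SE 0.18, adjusted p = 0.000163), or 3.02-fold, with quisinostat and 0.84 (SE 0.19, adjusted p = 0.0101), or 1.79-fold, with romidepsin. With mivebresib it was 0.50 (95% interval 0.07 to 0.93, adjusted p = 0.0562). The quisinostat rise was called under all 16 alternatives run, from 1.33 to 1.91. Without romidepsin replicate 1 the romidepsin value was 0.73 and not called (adjusted p = 0.0765). The mivebresib value was called in 5 of 16 alternatives, with DESeq2 (0.50, adjusted p = 0.0369), library size alone (0.52, 0.0448), upper-quartile factors (0.55, 0.0423), the replicate block (0.51, 0.0388) and without control replicate 2 (0.82, 0.00104).

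NOTCH1, the receptor first linked to leukaemia, had 15.7 and 25.5 scaled CPM in the controls. It had 15.8 and 13.7 with romidepsin, 12.03 and 13.5 with quisinostat and 24.9 and 26.4 with mivebresib. Only the quisinostat pair lay outside the wide control range, below it. The quisinostat log2 fold change was -0.69 (SE 0.20, adjusted p = 0.0188), a level 1.61-fold lower. It was -0.48 with romidepsin (95% interval -0.94 to -0.02, adjusted p = 0.103) and 0.32 with mivebresib (-0.13 to 0.76, adjusted p = 0.218). The quisinostat value was not called in 5 of 16 alternatives. It was -0.31 (adjusted p = 0.0567) without control replicate 2, -0.60 (0.109) and -0.79 (0.0521) without quisinostat replicate 1 or 2, -0.49 (0.0661) with library size alone and -0.69 (0.0609) with the 4 libraries alone. Romidepsin was called lower without control replicate 1 (-0.76, adjusted p = 0.001), and mivebresib higher without control replicate 2 (0.70, 0.000747).

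NOTCH2, the most abundant receptor, had 105.6 and 178.9 scaled CPM in the controls, 241.5 and 209.5 with romidepsin, 134.4 and 149.7 with quisinostat and 150.4 and 168.3 with mivebresib. Both romidepsin libraries exceeded all others, while the quisinostat and mivebresib pairs lay between the controls. The romidepsin log2 fold change was 0.66 (SE 0.21, adjusted p = 0.0436), and 9 of 16 alternatives called it. It was 0.69 (0.106) with only the 4 libraries of the comparison, and 0.56 to 0.76 (0.0624 to 0.212) when any library of romidepsin, quisinostat or mivebresib was left out. Against control 2 alone it was 0.36 (0.0409), and against control 1 alone 1.09 (6.89e-05). Quisinostat gave -0.00 (95% interval -0.48 to 0.48, adjusted p = 0.995) and mivebresib 0.16 (-0.32 to 0.65, adjusted p = 0.556). Against control 2 alone quisinostat was called lower (-0.34, adjusted p = 0.0283), and against control 1 alone higher (0.42, 0.00886). Mivebresib was called against control 1 alone (0.59, adjusted p = 0.00142). NOTCH2NL, a near-identical partial copy with which reads could be shared, had log2 fold changes of 0.86, 0.56 and 0.29 for romidepsin, quisinostat and mivebresib (adjusted p = 0.000565, 0.00175 and 0.0443), so the NOTCH2 values are uncertain to that extent.

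DLL1, a ligand that activates receptors on neighbouring cells, rose with every drug from a low level. It had 10 and 9 counts in the controls, 39 and 36 with romidepsin, 46 and 61 with quisinostat and 25 and 25 with mivebresib. Scaled, these were 0.354 and 0.329 CPM in the controls, 1.34 and 1.24 with romidepsin, 1.46 and 1.94 with quisinostat and 0.914 and 0.899 with mivebresib. Every drug library lay above both controls, and no group overlapped another. The rise was 3.74-fold with romidepsin (log2 1.90, SE 0.31, adjusted p = 0.00269), 4.92-fold with quisinostat (log2 2.30, SE 0.30, adjusted p = 0.000302) and 2.63-fold with mivebresib (log2 1.40, SE 0.33, adjusted p = 0.00813). All were called under each of the 15 alternatives that kept the gene, which a minimum mean CPM of 5 does not. FAM120B overlaps DLL1 on the opposite strand, and it was called higher with each drug (log2 0.31, 0.38 and 0.78 in the same order). Whether counting used strand is not given in the sources used here, so shared reads were not tested.

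JAG1, a ligand of vascular and epithelial tissues, had 13.5 and 21.7 scaled CPM in the controls, 48.0 and 36.4 with romidepsin, 27.4 and 31.1 with quisinostat and 22.9 and 23.9 with mivebresib. Each drug library was above both controls, and romidepsin was the highest group. The romidepsin rise was 2.40-fold (log2 1.26, SE 0.21, adjusted p = 0.003) and was called under all 16 alternatives, from 0.98 to 1.64. The quisinostat rise was 1.66-fold (log2 0.73, SE 0.21, adjusted p = 0.0181), and without quisinostat replicate 2 it was 0.62 and not called (adjusted p = 0.103). Against control 2 alone this value was 0.42, and against control 1 alone 1.11. Mivebresib gave 0.41 (95% interval -0.08 to 0.90, adjusted p = 0.148), and 0.79 (0.00224) without control replicate 2.

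JAG2, the other Jagged ligand, kept to a narrow range of 23.1 to 32.3 scaled CPM over the 8 libraries. Its log2 fold changes were 0.11 with romidepsin (95% interval -0.17 to 0.38), -0.20 with quisinostat (-0.48 to 0.08) and 0.09 with mivebresib (-0.19 to 0.37), with adjusted p = 0.539, 0.202 and 0.583. All 3 intervals lie within a change of 1.5-fold. Without control replicate 1 the quisinostat value was -0.33 and called (adjusted p = 0.037).

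DLL3 had 51 and 18 counts in the controls, 40 and 50 with romidepsin, 52 and 44 with quisinostat and 58 and 70 with mivebresib. The romidepsin and quisinostat libraries lay between the controls, and the mivebresib pair above them. The log2 fold changes were 0.32, 0.30 and 0.90 in this order, with SE 0.40, 0.40 and 0.39 and adjusted p = 0.57, 0.551 and 0.0863. Without control replicate 1, all 3 drugs were called higher (1.25, 1.20 and 1.81). Without control replicate 2, the values were -0.22, -0.25 and 0.36, and none was called. The direction for DLL3 with the HDAC inhibitors was thus set by the choice of control library.

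**Figure D3:**
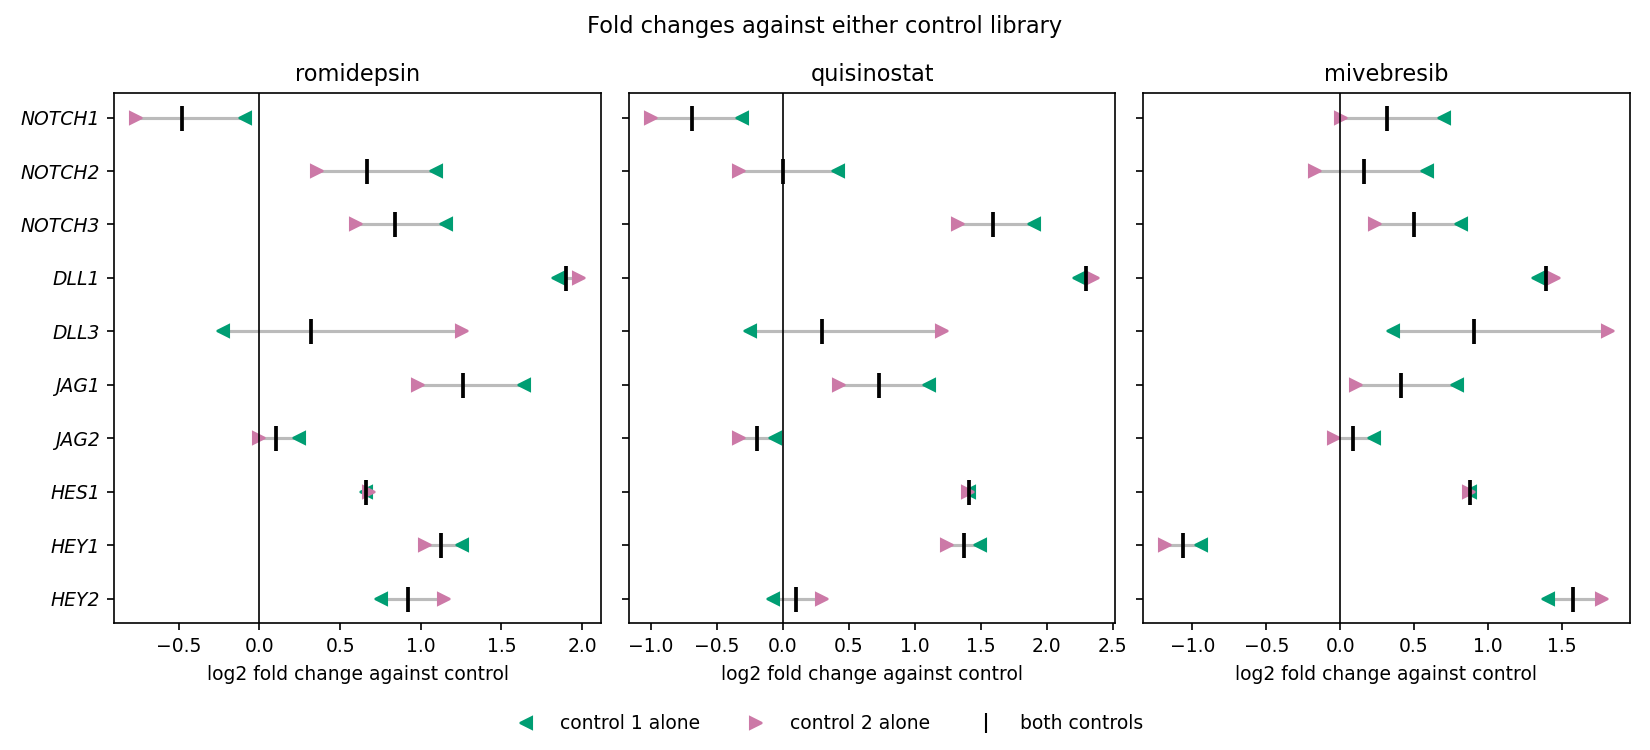
Log2 fold change of the 10 genes (rows) against control with each drug (panels), computed with control 1 alone, control 2 alone or both. The DLL3 markers lie on both sides of 0 with romidepsin and quisinostat, and those of DLL1, HES1 and HEY1 keep to 1 side within each panel. For HEY1 that side is above 0 with romidepsin and quisinostat and below 0 with mivebresib.

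HES1, the classical Notch target and a repressor of differentiation genes, had 2.94 and 2.96 scaled CPM in the controls. It had 4.40 and 4.92 with romidepsin, 7.503 and 8.18 with quisinostat and 5.23 and 5.61 with mivebresib. All drug libraries were above the controls, whose values nearly coincided, and no group overlapped another. HES1 rose 1.58-fold with romidepsin (log2 0.66, SE 0.14, adjusted p = 0.00945), 2.66-fold with quisinostat (log2 1.41, SE 0.14, adjusted p = 6.42e-05) and 1.84-fold with mivebresib (log2 0.88, SE 0.14, adjusted p = 0.00123). The quisinostat and mivebresib rises were called under all 16 alternatives. Without romidepsin replicate 2 the romidepsin value was 0.57 and not called (adjusted p = 0.0652).

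HEY1, a repressor with prominent roles in heart and vessels, had 9.07 and 10.8 scaled CPM in the controls. It had 21.4 and 21.9 with romidepsin, 25.7 and 25.6 with quisinostat and 5.63 and 3.85 with mivebresib. The HDAC inhibitor libraries were all above the controls and the mivebresib libraries all below them, with no overlap between groups. HEY1 rose 2.18-fold with romidepsin (log2 1.13, SE 0.15, adjusted p = 0.00106) and 2.58-fold with quisinostat (log2 1.37, SE 0.15, adjusted p = 0.000122). It fell with mivebresib, to a level 2.09-fold lower (log2 -1.07, SE 0.17, adjusted p = 0.00113). Each of these calls was made under all 16 alternatives, with values of 1.03 to 1.25, 1.25 to 1.57 and -1.37 to -0.82. Genes called higher with quisinostat and lower with mivebresib made up 4.51% of all genes tested, and HEY1 was the only such gene of the 10.

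HEY2, the relative of HEY1 known from the ventricular heart muscle, was close to the count limit. It had 8 and 6 counts in the controls, 17 and 11 with romidepsin, 5 and 12 with quisinostat and 18 and 24 with mivebresib. The mivebresib and romidepsin pairs lay above the controls, and the quisinostat pair lay on both sides of them. With mivebresib the rise was 2.99-fold (log2 1.58, SE 0.49, 95% interval 0.47 to 2.70, adjusted p = 0.0264). This call was lost with DESeq2 (1.59, adjusted p = 0.0858) and when either control or either mivebresib library was left out (1.37 to 1.78, adjusted p = 0.053 to 0.131). Romidepsin gave 0.92 (-0.27 to 2.12, adjusted p = 0.203) and quisinostat 0.10 (-1.20 to 1.40, adjusted p = 0.895).

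**Figure D4:**
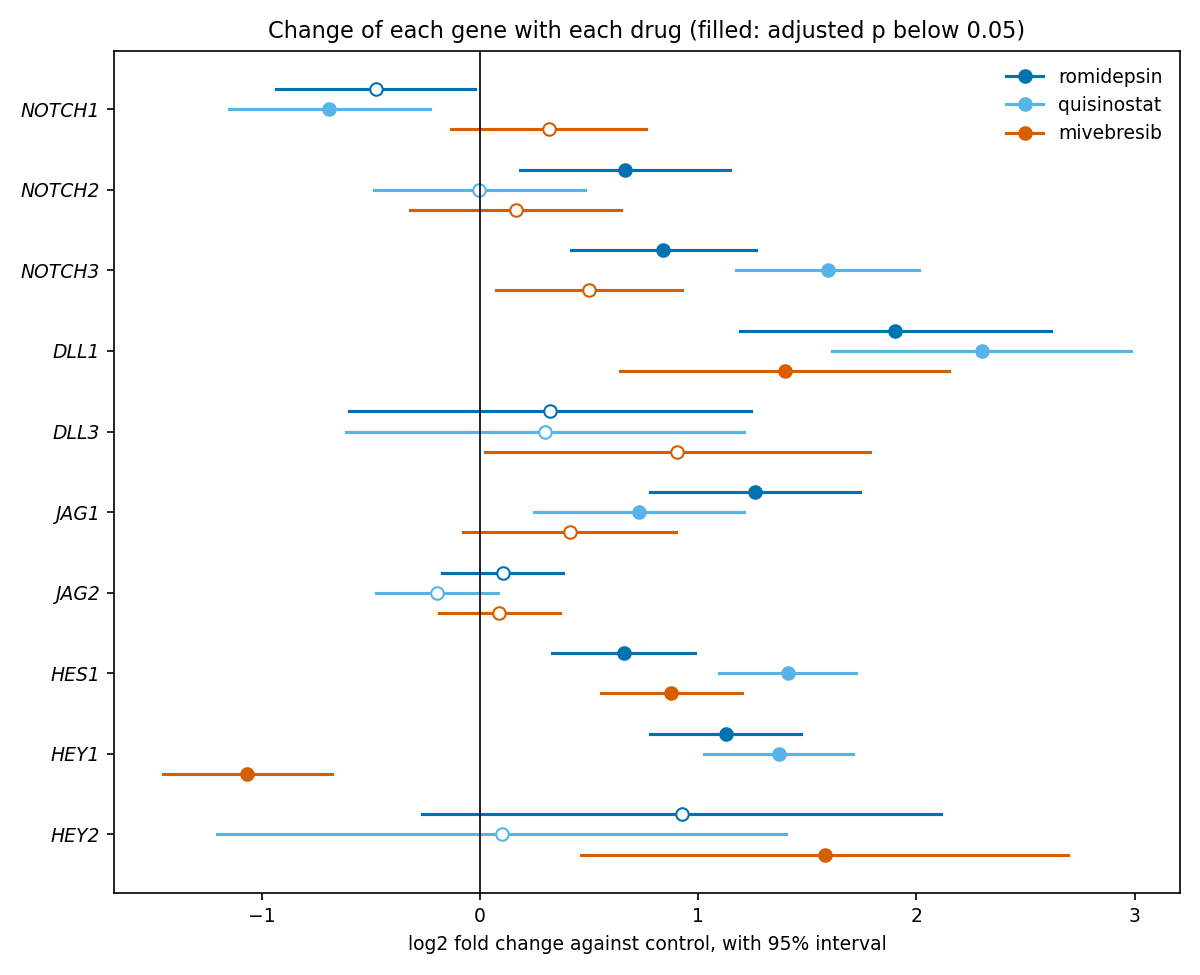
Log2 fold change of each gene against control (horizontal axis) with romidepsin, quisinostat and mivebresib, from edgeR on 2 libraries per group. Lines are 95% intervals and filled points have an adjusted p below 0.05. HEY1 is the only gene with filled points on both sides of 0, and the DLL1 and HES1 points are filled for all drugs.

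The drugs were also compared with each other, in 3 pairs over the same 10 genes. Romidepsin and quisinostat were given at the same concentration, 40 nM, and mivebresib at 1200 nM. In the paper's viability tests romidepsin was more potent than quisinostat in MP38, so equal concentrations need not be equal in effect. All 3 comparisons hold for these doses only. Between quisinostat and romidepsin, 2 genes were called higher with quisinostat and 1 lower, against 21% and 14.6% of all genes tested. NOTCH3 was 1.69-fold higher with quisinostat (log2 0.75, SE 0.18, adjusted p = 0.0117) and HES1 1.68-fold higher (log2 0.75, SE 0.13, adjusted p = 0.00298). NOTCH2 was 1.59-fold lower (log2 -0.67, SE 0.21, adjusted p = 0.0385). The HES1 difference was called under all 16 alternatives. The NOTCH3 difference was not called without romidepsin replicate 2 (0.64, adjusted p = 0.0904) or quisinostat replicate 2 (0.59, 0.0998), and NOTCH2 was called under 7 of 16 alternatives.

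For DLL1 and HEY1, which rose with both HDAC inhibitors, no difference between these drugs was called. The log2 difference, quisinostat minus romidepsin, was 0.40 for DLL1 (95% interval -0.15 to 0.95, adjusted p = 0.235) and 0.24 for HEY1 (-0.08 to 0.57, adjusted p = 0.218). JAG1 was nominally lower with quisinostat, at -0.53 (-0.997 to -0.07, adjusted p = 0.0735), and without either control library it was called (-0.56 and -0.54, adjusted p = 0.00333 and 0.00365). JAG2 behaved likewise at -0.30 (adjusted p = 0.0854), with -0.33 and -0.31 (0.0181 and 0.0223) without control replicate 1 or 2.

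HEY1 separated mivebresib from the HDAC inhibitors. Its level with mivebresib was 4.57-fold lower than with romidepsin (log2 -2.19, SE 0.16, adjusted p = 1.94e-05) and 5.41-fold lower than with quisinostat (log2 -2.44, SE 0.16, adjusted p = 7.01e-06), and both were called under all 16 alternatives. NOTCH1 went the other way, with a level 1.73-fold higher than with romidepsin (log2 0.79, SE 0.20, adjusted p = 0.0104) and 2.01-fold higher than with quisinostat (log2 1.01, SE 0.20, adjusted p = 0.00261). The second of these was called under all 16 alternatives. The first was not called without romidepsin replicate 2 (0.70, adjusted p = 0.0748) or mivebresib replicate 2 (0.76, 0.0596). Between mivebresib and romidepsin, 1 gene was called higher and 2 lower, against 23.7% and 25.2% of all genes.

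JAG1 was lower with mivebresib than with romidepsin (log2 -0.85, SE 0.21, adjusted p = 0.00915), and it was not called without romidepsin replicate 1 (-0.64, adjusted p = 0.0731) or either mivebresib library (-0.82 and -0.88, 0.0618 and 0.0513). Between mivebresib and quisinostat, 2 genes were called higher and 4 lower, against 26.2% and 31.5% of all genes. NOTCH3 was 2.13-fold lower with mivebresib (log2 -1.09, SE 0.18, adjusted p = 0.000938), DLL1 1.87-fold lower (log2 -0.90, SE 0.25, adjusted p = 0.0146) and HES1 1.45-fold lower (log2 -0.53, SE 0.13, adjusted p = 0.00708). The NOTCH3 difference was called under all 16 alternatives. The HES1 difference was not called without quisinostat replicate 2 (-0.46, adjusted p = 0.0627), nor was the DLL1 difference (-0.67, 0.137), which was also not called without either mivebresib library (-0.91 and -0.88, 0.0586 and 0.0642) or with DESeq2 (-0.90, 0.0921). HEY2 was 2.79-fold higher with mivebresib (log2 1.48, SE 0.47, adjusted p = 0.0236), and it was not called without quisinostat replicate 1 (0.98, adjusted p = 0.178) or mivebresib replicate 2 (1.28, 0.118), or with DESeq2 (1.503, 0.0853).

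Beyond these 10 genes, 73 other genes of the pathway were listed by role, and 64 were tested. With romidepsin 10 were called higher and 13 lower, against 15.2% and 15.8% of all genes tested. With quisinostat these were 16 and 21, against 28% and 25.1%, and with mivebresib 11 and 23, against 22.2% and 24.1%. Their median log2 fold changes were 0.05, -0.11 and -0.07. HES7, a segmentation clock repressor, had 16 and 13 counts in the controls, 150 and 133 with romidepsin, 354 and 377 with quisinostat and 43 and 50 with mivebresib. Its log2 fold changes were 3.21 (SE 0.20), 4.47 (SE 0.19) and 1.69 (SE 0.23), with quisinostat the highest as for DLL1 and HES1.

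HEYL, the relative of HEY1 and HEY2 found in smooth muscle, had 4 and 6 counts in the controls, 33 and 45 with romidepsin, 68 and 72 with quisinostat and 15 and 14 with mivebresib. Both controls were below the filter of 0.345 CPM (0.142 and 0.219 scaled CPM), so HEYL was tested only through its level in the drug libraries. The log2 values were 2.87 (SE 0.37), 3.595 (SE 0.34) and 1.53 (SE 0.43), and the mivebresib call was lost when control replicate 1 or either mivebresib library was left out (1.25 to 1.59, adjusted p = 0.0534 to 0.0984). HES2 rose with all 3 drugs as well (0.70, 1.04 and 0.96). Among the HES and HEY genes tested, HEY1 was the only gene called lower with mivebresib, and HES6, which counters HES1, was the only such gene called lower with quisinostat (-0.73, adjusted p = 0.022, against 1.00 with mivebresib, 0.00565). The HES6 quisinostat value was not called with library size alone (-0.54, adjusted p = 0.0765), with the 4 libraries alone (-0.73, 0.0645), without control replicate 1 (-0.28, 0.0701) or without quisinostat replicate 1 (-0.75, 0.0804) or 2 (-0.71, 0.0956). NRARP, a target that damps the pathway, was called with mivebresib (1.60, SE 0.26). HES3 and HES5 were not tested, with 0 or 1 count in every library.

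The remaining receptor, NOTCH4, had 50 and 56 counts in the controls and 19 to 37 in the drug libraries. It fell with each drug (log2 -1.26, -0.88 and -1.28, adjusted p = 0.00836, 0.0177 and 0.00475), in contrast to NOTCH3, although it was not called with DESeq2 for quisinostat (-0.90, 0.0835), nor without control replicate 2 (-0.78, 0.0719) or quisinostat replicate 1 (-0.68, 0.143), nor for romidepsin without replicate 2 of that drug (-1.21, 0.0575) or replicate 1 (-1.33, 0.05). The non-canonical ligand DLK2 fell with each drug (-0.65, -1.66 and -1.42), where the romidepsin call was lost without its replicate 1 (-0.61, adjusted p = 0.0775). DLL4, a vascular ligand, was called lower with mivebresib (-0.86, adjusted p = 0.00851), and without mivebresib replicate 1 it was not (-0.85, 0.0524). DLK1 had 0 counts in all libraries.

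Of the other pathway genes, 7 were called higher with quisinostat and lower with mivebresib, and 2 (LFNG and HES6) the reverse, against 4.51% and 2.98% of all genes. The 7 included the coactivator MAML2, with 385 and 421 counts in the controls, 696 and 647 with romidepsin, 660 and 687 with quisinostat and 174 and 185 with mivebresib. Its log2 fold changes were 0.67 (SE 0.10), 0.56 (SE 0.10) and -1.16 (SE 0.11), the same signs as for HEY1. MAML3 (0.37 with quisinostat and -1.12 with mivebresib), the corepressor TLE2 (0.84 and -0.86) and the ubiquitin ligases DTX1 (2.43 and -0.92) and DTX3 (1.57 and -2.43) were also called in both directions. With romidepsin, MAML3 (0.09, 95% interval -0.13 to 0.31, adjusted p = 0.513) and TLE2 (0.17, -0.16 to 0.50, adjusted p = 0.394) were not called. DTX1 and DTX3 were called higher with romidepsin (1.05 and 1.19, adjusted p = 0.0141 and 0.0312), but DTX1 not with the 4 libraries alone (1.07, 0.0554) or without romidepsin replicate 2 (0.95, 0.0778), and DTX3 not in 5 alternatives (0.91 to 1.32, adjusted p = 0.053 to 0.16). DTX3 had 24 and 15 counts in the controls and 5 and 2 with mivebresib, and its mivebresib fall was not called without mivebresib replicate 2 (-1.91, adjusted p = 0.0509). The DTX1 fall with mivebresib was not called in 9 alternatives, among them limma-voom (-0.88, adjusted p = 0.0696) and leaving out control replicate 1 (-0.50, 0.247), and the MAML3 rise was not called without quisinostat replicate 2 (0.32, 0.09).

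LFNG, a glycosyltransferase that alters which ligands a Notch receptor responds to, had 36 and 40 counts in the controls, 32 and 15 with romidepsin, 19 and 18 with quisinostat and 140 and 153 with mivebresib. It rose 3.88-fold with mivebresib (log2 1.95, SE 0.27, adjusted p = 0.00048) and fell by 1.21 on the log2 scale with quisinostat (SE 0.34, adjusted p = 0.0155), a call lost without either quisinostat library (-1.24 and -1.19, 0.0677 and 0.0762). APH1A and APH1B, subunits of the gamma-secretase that releases the receptor, were called lower with mivebresib (-0.85 and -1.11, adjusted p = 9.56e-05 and 0.00321). KAT2B, an acetyltransferase coactivator, fell with mivebresib (-1.58, SE 0.09, adjusted p = 7.04e-06), and the related KAT2A fell with all 3 drugs (-0.73, -0.87 and -0.93).

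**Figure D5:**
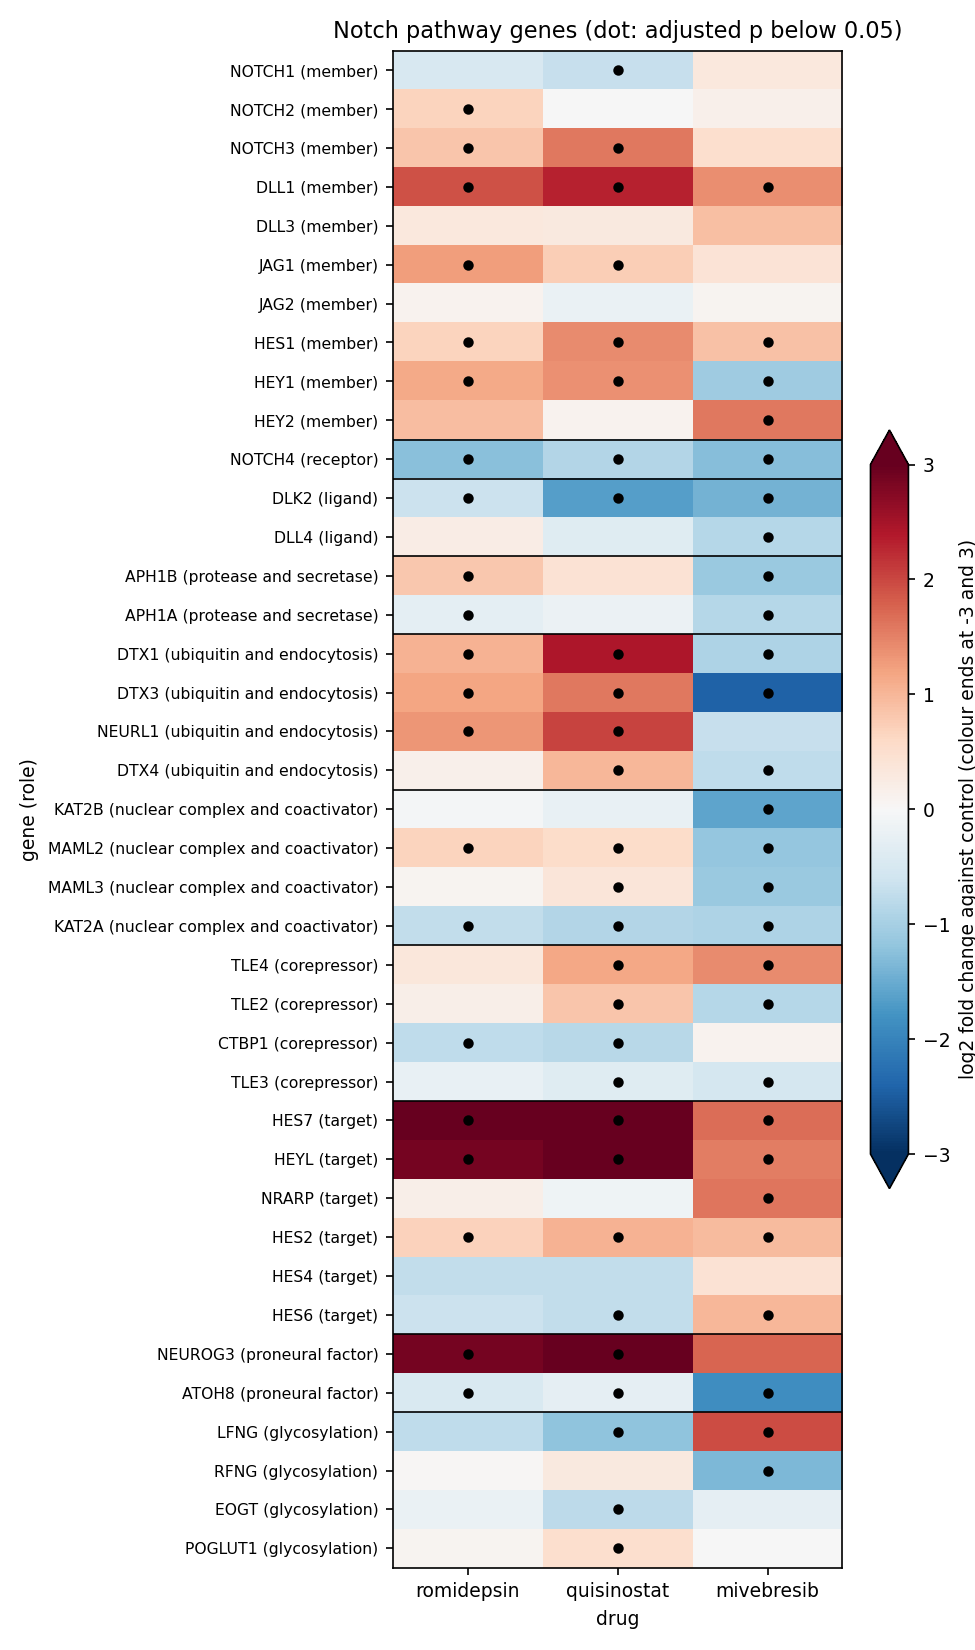
Log2 fold change against control (colour, red higher and blue lower, ending at -3 and 3) for the 10 genes and other named Notch pathway genes (rows, by role) with each drug (columns). Dots mark an adjusted p below 0.05. HES7 and HEYL are the darkest red target rows. MAML2, DTX1 and DTX3 share the red, red and blue signs of HEY1 with a dot for each drug. Other rows, such as APH1B, MAML3, TLE2 and RFNG, have these signs without a dot for every drug.

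Among the 10 genes, the gene of each role with the widest range of group means was NOTCH3 among receptors (1.61 on the log2 scale), DLL1 among ligands (2.09) and HEY1 among targets (2.44). Over the 8 libraries, the genes whose log2 CPM was most like NOTCH3 were LPCAT2, FKBP7 and KIAA0355 (Pearson r = 0.993, 0.988 and 0.987). Those most like DLL1 included PPM1E and EFNA3 (0.988 and 0.986). For HEY1 they were BCL9, KIAA1522 and GBP3 (0.998, 0.993 and 0.99). These are the highest of about 9840 candidates with 8 points in 4 groups, which share libraries and depth, and are given as a description. Of the HEY1 neighbours, GBP3 had 94 and 100 counts in the controls, 345 and 346 with romidepsin, 546 and 541 with quisinostat and 18 and 15 with mivebresib. The level of GBP3 thus ran through the same order of groups as HEY1, over a wider range.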

How the data were processed

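Bulk RNA sequencing of MP38 cells was analysed in 8 libraries, 2 per group, grouped by the treatment in the sample labels. RNA was extracted after 24 h and sequenced as paired-end reads by the study. The authors deposited raw counts per gene symbol, made with BioJupies and not normalized, on hg38 per the labels; the aligner, and whether counting used strand, are not given in the sources used here. The authors' log CPM and quantile-normalized tables were not used here. The 10 genes, the pathway list and the markers were chosen with earlier results of these data known.

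The test was the quasi-likelihood one of edgeR 4.0.16 (R 4.3.3), after filterByExpr on the groups and TMM scaling, in a single model of all 8 libraries without a block, with Benjamini-Hochberg adjustment over all tested genes in each comparison. The common biological coefficient of variation was 0.0938. SE was the size of the log2 fold change before its shrinkage by edgeR's prior count, over the square root of F. The 95% intervals were centred on the reported, shrunken log2 fold change and used the total degrees of freedom. The pipeline was tested on simulated counts. Scaled CPM used TMM library sizes, and log2 CPM for likeness a prior count of 2. Lengths were merged exons of GENCODE 29, where 27368 symbols matched 1 gene. Replicates were not identical and differed by more than sampling noise over the tested genes pooled (chi-square per degree of freedom 9.53 to 58.2). Genes with high counts weigh most in this pooled figure. Having 2 libraries per group thus limits precision. For genes with few counts, such as DLL1, HEY2, HEYL and DTX3, depth limits it as well. P-values measure the spread between wells of the same line.

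Named genes were all 10 members, every listed receptor, ligand and HES or HEY gene, the called pathway genes with the 4 largest changes in each role (average log2 CPM not under 0), and the 3 nearest genes in pattern (not under 3). CREBBP and PSENEN fall outside this rule and are counted only, and some results of this rule are not reported here. Alternatives were DESeq2 1.42.0, limma-voom (limma 3.58.1), upper-quartile factors, library size alone, no count filter, a minimum mean CPM of 5, fits to the 4 libraries of a comparison, a replicate block, and each library left out in turn, where the lone library of a group is assumed to vary like the other groups. Figures used Python 3.11.15 and matplotlib 3.10.9.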

Additional observations from a re-analysis of the deposited data

How the results depend on the processing

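Of 470 values of the 10 genes against control under the 16 alternatives, 419 kept their direction and side of the threshold, 20 lost a call, 14 gained 1 and 17 changed sign. Between drugs these were 413, 24, 28 and 6 of 471, and for other named genes 938, 81, 6 and 3 of 1028. For the values that changed sign, the cause was not tested. NOTCH2 with quisinostat gave 0.045 (limma-voom), 0.20 (library size alone), 0.13 (upper-quartile factors), 0.095 (a minimum mean CPM of 5), 0.00043 (the 4 libraries alone) and -0.34 to 0.42 over the left-out libraries. NOTCH2 with mivebresib ranged from -0.17 to 0.59 over the left-out libraries, and was -0.013 against quisinostat with library size alone. DLL3 ranged from -0.22 to 1.25 with romidepsin and from -0.25 to 1.20 with quisinostat, and between these drugs from -0.18 to 0.14, with 0.11 for library size alone and 0.024 for upper-quartile factors. JAG2 ranged from -0.0012 to 0.24 with romidepsin, from -0.041 to 0.23 with mivebresib and from -0.052 to 0.016 between these drugs, and was 0.0041 with quisinostat and library size alone. HEY2 with quisinostat was -0.025 with limma-voom and ranged from -0.67 to 0.60. HES4, with 758 and 205 counts in the controls and no call, ranged from -1.39 to 0.48 with romidepsin, -1.39 to 0.45 with quisinostat and -0.22 to 1.63 with mivebresib.

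Counts of called genes among the 10 stayed within 1.5 times for romidepsin and quisinostat against control and for mivebresib against quisinostat. For mivebresib against control, 2 of the 7 genes with a mean CPM of at least 5 were called, since fewer genes were tested, and 3 to 7 were called over the left-out libraries (7 without control replicate 2). Between quisinostat and romidepsin, 6 were called with the 4 libraries alone and 1 to 5 over the left-out libraries. Between mivebresib and romidepsin these were 5 and 1 to 5. Of other pathway genes with romidepsin, 12 of 51 were called at the CPM minimum, 13 with the 4 libraries alone and 10 to 32 over the left-out libraries. With quisinostat they were 21 of 51 and 24 to 38. Library size alone put the median of all genes at 0.20 for quisinostat and -0.21 for mivebresib against quisinostat, and upper-quartile factors at 0.13 and -0.12.

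The deviations of same-numbered wells were weakly correlated (-0.162 to 0.158). The correlations were positive among control, quisinostat and mivebresib (0.064 to 0.158) and negative between romidepsin and each of these groups. With 2 libraries per group, they cannot decide whether the numbers pair the samples. The replicate block gave NOTCH2 with quisinostat 0.020, and it called NOTCH3 with mivebresib (0.51, adjusted p = 0.0388), JAG2 between the HDAC inhibitors (-0.31, 0.0413) and JAG2 between mivebresib and quisinostat (0.29, 0.0326). Of the calls of the 10 genes it changed no other.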
